A study of Mus musculus with 11 samples.

Results

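The Wnt and beta-catenin genes described here are 8 genes of mouse embryonic stem cells (ESCs): the ligand gene Wnt3, Ctnnb1, which encodes beta-catenin, the feedback inhibitor genes Axin2 and Nkd1, the DNA-binding factor genes Lef1, Tcf7 and Tcf7l1, and the target gene Sp5. They were taken by symbol after the Ensembl identifiers in the count tables were matched to the GENCODE M21 annotation of GRCm38. All 8 were among the 54838 genes counted, and all 8 were among the 16073 genes that passed the expression filter of more than 1 CPM (counts per 1e+06 counted reads) in at least 4 libraries. RNA was sequenced from E14 cells, an established mouse ESC line grown here on gelatin with leukemia inhibitory factor (LIF) and Knockout Serum Replacement, 36 h after siRNA transfection. There were 3 libraries from cells given a control scramble siRNA, 4 from cells given CMTR1 siRNA 1 and 4 from cells given CMTR1 siRNA 2. CMTR1 is the enzyme that methylates the first transcribed nucleotide of mRNA next to the cap, and the labels give no other treatment. All the libraries come from 1 cell line and from transient transfection, in which the share of cells that took up the siRNA was not given in the sources used here.

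Wnt ligands bind Frizzled and LRP5/6 receptors on the cell surface, and the signal passes through Dishevelled to a complex of AXIN, APC, GSK3 and casein kinase 1 that otherwise marks beta-catenin for destruction. Beta-catenin that escapes the complex enters the nucleus and binds the LEF/TCF factors, which carry it to target genes such as Axin2, Sp5, Nkd1 and Lef1. In mouse ESCs the most studied of these factors is TCF7L1 (also called TCF3), which acts mainly as a repressor of pluripotency genes, and beta-catenin relieves that repression. Beta-catenin protein is controlled by its stability, which RNA counts do not measure.

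The libraries held 6738478 to 8382318 reads assigned to genes. Libraries of 1 group differed from each other by more than counting noise, with a chi-square per degree of freedom of 1.29 to 2.82 between any 2 of them, so none was counted as a repeat of another. The study's methods call its sequencing replicates biological, and the sources used here do not say how the cultures behind them were separated, so the p-values measure the spread between these libraries. Cmtr1 itself had 21.3, 21.7 and 17.9 CPM in the control libraries, 21.1, 21.3, 16.2 and 18.04 with CMTR1 siRNA 1 and 15.6, 16.8, 16.4 and 19.5 with CMTR1 siRNA 2. Both groups overlapped the control (-0.09 on the log2 scale with adjusted p = 0.743, and -0.25 with adjusted p = 0.144), so the counts do not by themselves check the siRNA labels. Of the exon bases of Cmtr1, 36.3% also belong to other annotated genes on the same strand, where reads are ambiguous. On the opposite strand, exons of Ccdc167 cover 47.2% of them. The summed CPM of 7 ESC markers was 1424 to 1504 in the control, 1179 to 1342 with siRNA 1 and 1280 to 1325 with siRNA 2. The 4 neural markers summed to 113 to 119, 128 to 146 and 129 to 153 CPM, the 5 fibroblast markers to 22.0 to 26.2, 23.7 to 28.0 and 33.4 to 38.6, and the 4 trophoblast markers to 34.5 to 41.6, 40.1 to 44.8 and 29.9 to 33.3. The 5 primitive endoderm markers (24.6 to 41.3 CPM over all libraries) and the 4 primitive streak and mesoderm markers (5.82 to 8.61) overlapped between the groups. No marker was at 0 in every library, and the part these cell type markers play in the results below was not tested. In bulk RNA, fewer cells of a type and less RNA per cell cannot be told apart.

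Lef1 was the member that changed with both siRNAs: it rose 1.36-fold with siRNA 1 and 1.29-fold with siRNA 2, and all 8 CMTR1 siRNA libraries lay above all 3 control libraries. Tcf7l1 fell with siRNA 2, to 0.87 of the control level. Ctnnb1, Axin2, Tcf7, Sp5, Wnt3 and Nkd1 did not pass the test with either siRNA. Thus 1 of 8 members was called with siRNA 1 (1 higher) and 2 of 8 with siRNA 2 (1 higher, 1 lower) in edgeR's quasi-likelihood test, at a Benjamini-Hochberg adjusted p of 0.05 over all genes tested. Over all genes, 4.67% were called with siRNA 1 (2.71% higher and 1.97% lower) and 9.72% with siRNA 2 (6.17% higher and 3.55% lower). The share of higher genes among those calls depended on the scaling: it was 57.9% with siRNA 1 and 63.4% with siRNA 2 when libraries were scaled to their totals, 46.4% and 49.8% with TMM factors, and 37.4% and 42.7% with DESeq2. The libraries of 2 members did not overlap the control with siRNA 1 (Lef1 and Wnt3, both higher), against 15.5% of all genes, and those of 3 members did not with siRNA 2 (Lef1, Axin2 and Ctnnb1, all higher), against 19.4%. The median log2 fold change of the 8 members was 0.21 under siRNA 1 and 0.10 under siRNA 2, beside 0.02 and 0.03 over all genes tested.

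**Figure D1:**
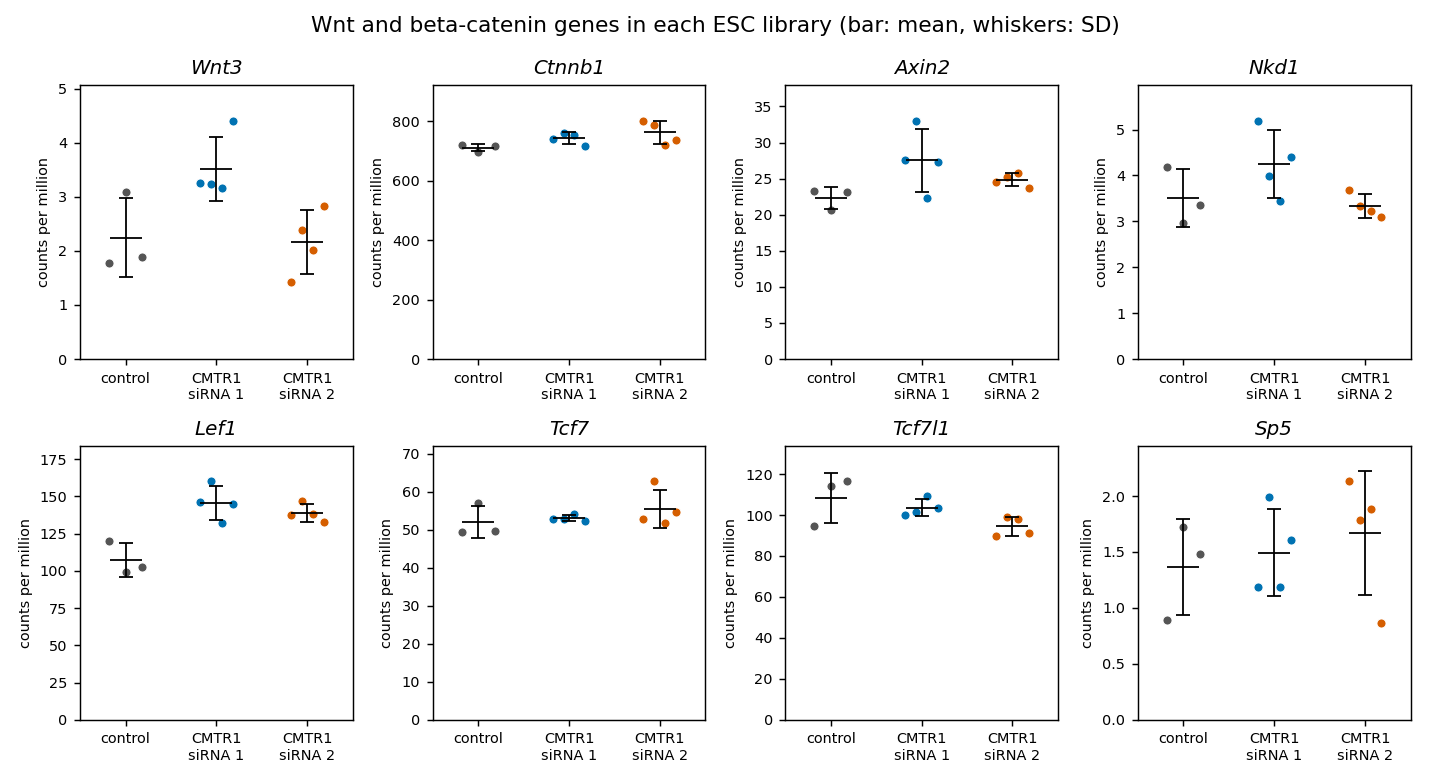
CPM (vertical axis, from 0) of the 8 genes in each of the 11 libraries, grouped by siRNA; points are libraries, bars the group mean and whiskers the SD. The 8 CMTR1 siRNA libraries of Lef1 lie between 132 and 160.02 CPM, above the 3 control libraries at 99.2 to 120.2, while most other genes overlap the control.

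The members were expressed over a wide range. Per kilobase of annotated exon, Ctnnb1 led in the control libraries with a level of 137 CPM per kb, followed by Tcf7l1 (27.6 ± 3.08, SD, n = 3), Tcf7 (19.8 ± 1.63), Lef1 (12.2 ± 1.28) and Axin2 (4.06). The libraries of these 5 neighbours did not overlap in the control, although those of Tcf7l1 and Tcf7 did once all 11 libraries were taken. Nkd1 (0.769 CPM per kb), Wnt3 (0.731) and Sp5 (0.650) closed the order, and their control libraries overlapped. These genes rested on few reads, 24 to 35 per library for Nkd1, 10 to 33 for Wnt3 and 7 to 16 for Sp5.

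Wnt3 (GRCm38 chromosome 11, 103774150 to 103817957, plus strand) encodes a secreted ligand that starts canonical signalling. Its level was 1.78, 3.08 and 1.88 CPM in the control libraries, 3.26, 3.24, 3.17 and 4.41 under siRNA 1 and 1.42, 2.39, 2.02 and 2.84 under siRNA 2. Each siRNA 1 library was above each control library and each siRNA 2 library, while siRNA 2 and control overlapped. The difference of siRNA 1 from control was 0.63 on the log2 scale (95% confidence interval 0.13 to 1.14, adjusted p = 0.154), which did not pass the test, and that of siRNA 2 was -0.04 (-0.60 to 0.51, adjusted p = 0.953).

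Ctnnb1 (chromosome 9, 120929216 to 120960507, plus strand) was the most abundant member. Its level was 719, 697 and 715 CPM in the control, 740.1, 760.1, 754 and 716 under siRNA 1 and 802, 788, 721 and 738 under siRNA 2. The siRNA 2 libraries were all above the control libraries, by a narrow margin, and the siRNA 1 libraries overlapped them. The log2 fold changes were 0.06 (-0.02 to 0.15, adjusted p = 0.48) and 0.10 (0.02 to 0.19, adjusted p = 0.128). Without siRNA 2 replicate 3 the second difference passed the test (0.13, adjusted p = 0.043). An annotated exon of Ulk4 on the opposite strand covers 14.6% of the exon bases of Ctnnb1, and whether strand was used in counting is not given in the sources used here.

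Axin2 (chromosome 11, 108920349 to 108950783, plus strand) encodes a scaffold of the destruction complex that Wnt signalling induces as negative feedback. Its level was 23.2, 20.6 and 23.1 CPM in the control, 27.6, 33.0, 22.3 and 27.3 under siRNA 1 and 24.6, 25.3, 25.7 and 23.7 under siRNA 2. One siRNA 1 library (replicate 3) fell among the controls and the other libraries lay above them, and the siRNA 2 libraries were all just above the controls. The log2 fold change was 0.31 with siRNA 1 (0.11 to 0.51), where the adjusted p of 0.0575 lay just past the threshold, and 0.15 with siRNA 2 (-0.05 to 0.35, adjusted p = 0.36). With siRNA 1 the gene was called without replicate 3 of that group (0.40, adjusted p = 0.00675), by edgeR's exactTest (0.31, adjusted p = 0.048) and without an expression filter (0.31, adjusted p = 0.0454). Exons of Gm11670 on the opposite strand cover 3.80% of the exon bases of Axin2.

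Nkd1 (chromosome 8, 88521354 to 88594884, plus strand), a target gene whose product binds Dishevelled and dampens the signal, did not separate the groups. It had 4.19, 2.96 and 3.36 CPM in the control, 5.19, 3.99, 3.43 and 4.41 under siRNA 1 and 3.69, 3.34, 3.24 and 3.09 under siRNA 2. The log2 fold changes were 0.27 (-0.14 to 0.69, adjusted p = 0.552) and -0.07 (-0.51 to 0.36, adjusted p = 0.887).

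Lef1 (chromosome 3, 131110471 to 131224356, plus strand) encodes the LEF/TCF factor that most often activates targets with beta-catenin, and it is itself a target gene. Its level was 120.2, 99.2 and 103 CPM in the control (107 ± 11.3, SD, n = 3). With siRNA 1 it was 146, 160.02, 132 and 145 (146 ± 11.4, n = 4), and with siRNA 2 it was 137, 147, 138 and 133 (139 ± 5.99, n = 4). The lowest CMTR1 siRNA library was therefore above the highest control library. On the log2 scale Lef1 rose by 0.44 with siRNA 1 (SE 0.061, adjusted p = 4.42e-06) and 0.37 with siRNA 2 (SE 0.061, adjusted p = 4.07e-05). Both calls held in all 18 alternatives, with log2 fold changes of 0.39 to 0.53 and 0.32 to 0.46. Both comparisons share the 3 control libraries, in which replicate 1 was the highest for Lef1. That library also held the lowest levels of Tcf7l1 (94.5 CPM), Esrrb (130.01) and Nanog (76.3) in the control. The exons of an antisense transcript, Gm43352, cover 13.7% of the exon bases of Lef1. Without a stated strand setting it is not known whether reads in those bases were counted for Lef1 or set aside as ambiguous.

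Tcf7l1 (chromosome 6, 72626378 to 72789254, minus strand), the repressor of the family, had 94.5, 114 and 116 CPM in the control (108 ± 12.1, n = 3). It had 99.9, 102, 109 and 104 with siRNA 1 (104 ± 4.05, n = 4) and 89.8, 99.0, 98.0 and 91.1 with siRNA 2 (94.5 ± 4.70, n = 4). The siRNA 2 libraries lay below all 4 siRNA 1 libraries and below 2 of the 3 controls, and control replicate 1 fell among them. On the log2 scale Tcf7l1 differed by -0.06 with siRNA 1 (SE 0.06, adjusted p = 0.657) and -0.20 with siRNA 2 (SE 0.061, adjusted p = 0.0315). The call with siRNA 2 was lost without control replicate 2 (-0.16, adjusted p = 0.195), control replicate 3 (-0.14, adjusted p = 0.241), siRNA 2 replicate 1 (-0.17, adjusted p = 0.104) or siRNA 2 replicate 4 (-0.18, adjusted p = 0.0766). Exons of Gm15401 on the opposite strand cover 4.56% of the exon bases of Tcf7l1.

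Tcf7 (chromosome 11, 52252371 to 52283014, minus strand) encodes TCF1, which can activate or repress depending on its isoform. It had 49.5, 57.0 and 49.7 CPM in the control, 52.8, 52.8, 54.3 and 52.4 under siRNA 1 and 52.8, 62.8, 51.8 and 54.8 under siRNA 2. All 3 groups overlapped, with log2 fold changes of 0.03 (-0.11 to 0.17, adjusted p = 0.9) and 0.10 (-0.04 to 0.24, adjusted p = 0.428).

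**Figure D2:**
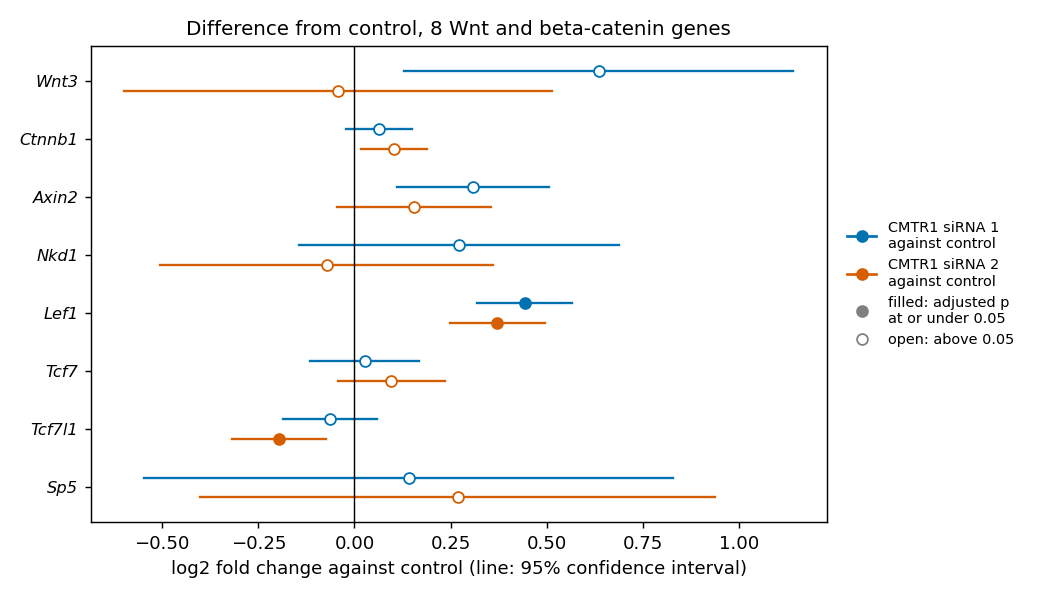
Log2 fold change against control (horizontal axis) of the 8 genes with siRNA 1 (blue) and siRNA 2 (orange); lines are 95% confidence intervals and filled points passed the test. Lef1 is filled for both siRNAs at 0.44 and 0.37, Tcf7l1 for siRNA 2 at -0.20, and the intervals of Sp5, Wnt3 and Nkd1 are the widest.

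Taken as parts of the family's summed CPM per kb, the 4 LEF/TCF genes (Tcf7l2, not a member, included) kept the order Tcf7l1, Tcf7, Lef1, Tcf7l2 in the group means. The share of Lef1 was 19.8 ± 2.95% in the control, 25.3 ± 1.84% with siRNA 1 and 24.9 ± 0.53% with siRNA 2. The share of Tcf7l1 was 44.6 ± 3.51%, 40.2 ± 1.57% and 37.9 ± 1.16%. For Tcf7 the shares were 32.0%, 30.8% and 33.2%, and for Tcf7l2, whose own change was 0.15 and 0.21 on the log2 scale without passing the test, they were 3.55%, 3.71% and 4.01%. The shares are given as a description, with no test, since each rests on the same counts as above.

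**Figure D3:**
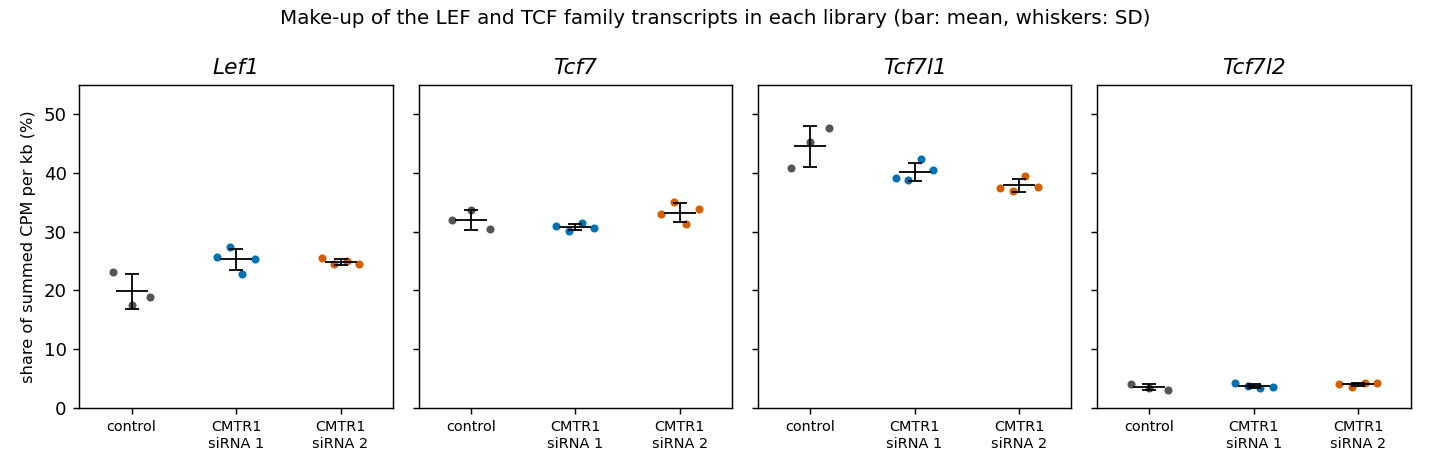
Share (percent, vertical axis) of each LEF/TCF gene in the family's summed CPM per kilobase of exon, per library (points) with group mean (bar) and SD (whiskers). Lef1 takes a mean of 19.8% in the control and 25.3% and 24.9% with the 2 CMTR1 siRNAs, and Tcf7l1 44.6%, 40.2% and 37.9%.

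Sp5 (chromosome 2, 70474923 to 70477729, plus strand) encodes a zinc finger repressor and is among the most direct beta-catenin targets in ESCs. It had 0.89, 1.73 and 1.48 CPM in the control, 1.19, 1.99, 1.19 and 1.60 under siRNA 1 and 2.13, 1.79, 1.89 and 0.86 under siRNA 2. The 3 groups overlapped throughout, with log2 fold changes of 0.14 (-0.55 to 0.83, adjusted p = 0.891) and 0.27 (-0.40 to 0.94, adjusted p = 0.683).

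LEF/TCF factors bind DNA at a short motif, so its letters were looked for in the promoters of the members. RefSeq (GRCm38.p6) gave 13 promoter windows for the 8 genes, each from 250 bases before to 50 bases after an annotated start. The letters searched were CTTTG followed by AT, AA, TT or TA, on both strands. They occurred in 3 of the 8 members (Sp5, Wnt3 and Lef1), beside 18.9% of 27025 genes, and 16.9% of all 32851 windows held at least 1 match. The Sp5 window (chr2:70474673-70474972, plus strand) held 2, and 1.94% of all windows held 2 or more. They lay at -222 on the opposite strand and at -104, where 0 is the start base. It is shown with those of Lef1, which rose, at 1 of a pair of overlapping upstream windows (chr3:131110073-131110372, plus strand) and of Tcf7l1, which fell with siRNA 2 (chr6:72788996-72789295, minus strand), both without a match. Capitals mark the matches and all are written 5′ to 3′ on the gene's strand.
Sp5 promoter: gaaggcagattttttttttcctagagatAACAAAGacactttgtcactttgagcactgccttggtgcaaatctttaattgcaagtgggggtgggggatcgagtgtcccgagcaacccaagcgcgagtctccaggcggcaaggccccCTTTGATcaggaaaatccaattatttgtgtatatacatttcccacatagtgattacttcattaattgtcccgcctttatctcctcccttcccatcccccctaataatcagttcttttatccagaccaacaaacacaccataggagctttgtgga
Lef1 promoter: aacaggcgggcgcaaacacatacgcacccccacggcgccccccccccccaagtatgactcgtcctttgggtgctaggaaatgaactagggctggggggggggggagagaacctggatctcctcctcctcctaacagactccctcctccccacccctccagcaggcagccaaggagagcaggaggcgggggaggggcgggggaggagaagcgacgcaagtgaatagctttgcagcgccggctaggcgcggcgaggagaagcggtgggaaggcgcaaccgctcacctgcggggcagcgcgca
Tcf7l1 promoter: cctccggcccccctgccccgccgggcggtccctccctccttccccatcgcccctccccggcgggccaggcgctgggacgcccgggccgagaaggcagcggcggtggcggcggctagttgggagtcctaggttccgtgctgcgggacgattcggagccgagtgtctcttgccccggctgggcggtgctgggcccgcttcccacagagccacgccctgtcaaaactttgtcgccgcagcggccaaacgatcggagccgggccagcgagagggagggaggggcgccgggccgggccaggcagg
The other matches, each shown with 11 bases on both sides, lay at 18 bases after the start of Wnt3 (chr11:103774182-103774210, plus strand) and 147 bases before a start inside the Lef1 gene (chr3:131156136-131156164, plus strand).
Wnt3 match: cctcaagtggaCTTTGTTccaactattgg
Lef1 internal match: caacctcagaaTACAAAGtaggattgcat
Axin2, Ctnnb1, Tcf7, Tcf7l1 and Nkd1 had no match in these windows, which says nothing of sites elsewhere, and a match describes letters only, not binding.

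Compared directly, siRNA 2 and siRNA 1 differed in none of the 8 members by the quasi-likelihood test, beside 7.44% of all genes called. At an unadjusted p under 0.05 there were 2 (Wnt3 and Tcf7l1). DESeq2 called 0 of the 6 members to which it gave an adjusted p, and exactTest called 1, Wnt3. Wnt3 was lower with siRNA 2 by -0.68 on the log2 scale (-1.15 to -0.21, adjusted p = 0.0641), and Tcf7l1 by -0.13 (-0.25 to -0.02, adjusted p = 0.158). Those were also the 2 members whose libraries did not overlap between the siRNAs, against 11.8% of all genes. Wnt3 was called by exactTest (-0.68, adjusted p = 0.0472) and without siRNA 2 replicate 4 (-0.83, adjusted p = 0.0456). Lef1 differed by -0.07 (-0.18 to 0.04, adjusted p = 0.507), Ctnnb1 by 0.04 (-0.04 to 0.12), Tcf7 by 0.07 (-0.06 to 0.20), Axin2 by -0.15 (-0.33 to 0.03), Nkd1 by -0.34 (-0.73 to 0.05) and Sp5 by 0.13 (-0.48 to 0.74).

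Among 9541 genes of at least 10 CPM on average, those whose log2 CPM varied most like a member over the 11 libraries included Zhx1 (r = 0.96) and Arrb1 (0.96) for Lef1. For Tcf7l1 they were Zfp710 (0.96), Llgl2 (0.93) and Tprn (0.92), for Ctnnb1 Syn1, Cyb5b and Selenow (0.93 to 0.94) and for Axin2 D11Wsu47e, Rreb1 and Rab11fip3 (each 0.91). For Tcf7 they were Cstf1 (0.90), Depdc7 (0.88) and Gorasp2 (0.88). For the low genes they were Ddx27, C77080 and Gltp for Sp5 (0.86 to 0.87), Ncaph, Mphosph9 and Smtn for Wnt3 (0.85 to 0.89) and Rsrp1, Chd7 and Zfand1 for Nkd1 (0.87 to 0.92). These Pearson values are among the highest of 9541 over 11 libraries that share groups and depth, and are a description only.

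Of 97 other genes of the pathway, 75 passed the expression filter. With siRNA 1, 9 of the 75 were called (7 higher, 2 lower; 12%, beside 4.67% of all genes), and with siRNA 2, 10 were (6 higher, 4 lower; 13.3%, beside 9.72%). Their median log2 fold changes were 0.09 and 0.06. Tnks, Ryk, Ror2 and Gsk3b rose, and Fzd5 and Notum fell, with both siRNAs, in comparisons that share the controls.

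**Figure D4:**
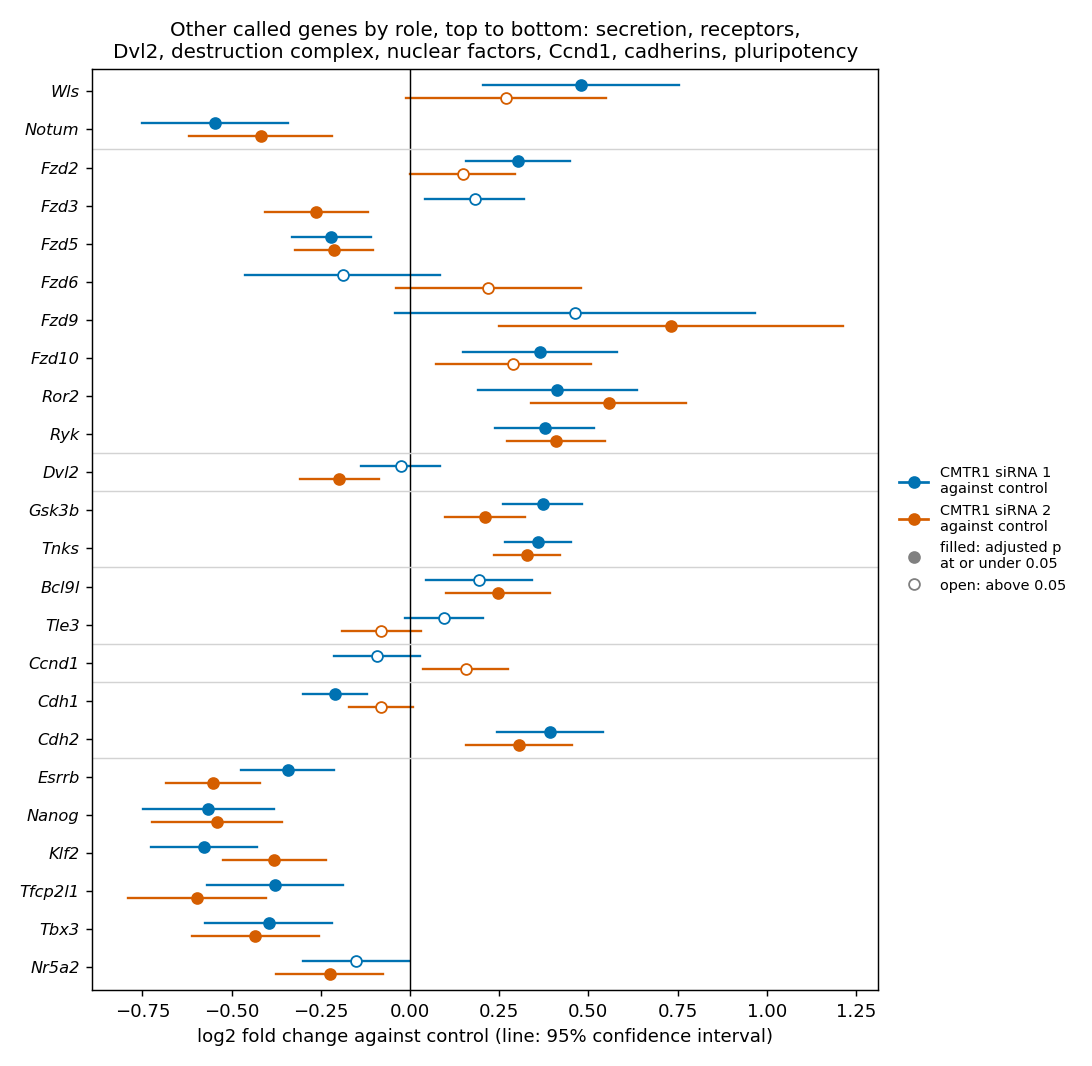
Log2 fold change against control (horizontal axis) with 95% confidence intervals for the 16 other pathway genes called in any comparison, 2 cadherins and 6 pluripotency genes, grouped by role between grey lines; filled points passed the test. Tnks, Gsk3b, Ryk, Ror2 and Cdh2 lie to the right for both siRNAs, and Notum, Fzd5, Esrrb, Nanog, Klf2, Tfcp2l1 and Tbx3 to the left.

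Among the ligands, 7 of 18 beside Wnt3 passed the filter. By edgeR, exactTest or, where it gave an adjusted p, DESeq2, 0 were called with either siRNA. At an unadjusted p under 0.05 there was 1 with each. Of all genes, edgeR's quasi-likelihood test called 4.67% with siRNA 1 and 9.72% with siRNA 2. Of the 16 secreted modulators (DKK, SFRP and R-spondin families and others), 8 passed the filter and again 0 were called by those tools, with 1 at an unadjusted p under 0.05 for each siRNA. All 3 genes that govern ligand release and activity passed the filter. Notum, an extracellular enzyme that removes the lipid from Wnt proteins and is a target gene, had 24.9, 27.3 and 29.9 CPM in the control, 19.9, 18.4, 17.3 and 19.2 under siRNA 1 and 17.2, 18.01, 23.7 and 22.7 under siRNA 2, each below every control. It fell by 0.55 (adjusted p = 0.000413) and by 0.42 (adjusted p = 0.00389) on the log2 scale. Wls, which carries Wnt proteins to the cell surface, rose with siRNA 1 (0.48, adjusted p = 0.0284), and Porcn, which adds the lipid, had -0.28 (adjusted p = 0.124) and -0.22 (adjusted p = 0.179). The Notum call with siRNA 2 was lost without control replicate 3 (-0.35, adjusted p = 0.055). The Wls call was lost with DESeq2 (adjusted p = 0.0981) and without control replicate 2 (adjusted p = 0.154), control replicate 3 (adjusted p = 0.125) or siRNA 1 replicate 2 (adjusted p = 0.164).

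Of the 22 receptor genes, 20 passed the filter and 5 were called with each siRNA (25%, beside 4.67% of all genes with siRNA 1 and 9.72% with siRNA 2). Ryk, a co-receptor without kinase activity, had 57.8, 48.8 and 45.1 CPM in the control, 63.4, 66.9, 65.1 and 67.5 under siRNA 1 and 65.5, 66.0, 65.5 and 71.7 under siRNA 2. It rose by 0.38 (adjusted p = 0.000345) and 0.41 (adjusted p = 5.38e-05) on the log2 scale. Ror2, a receptor for the non-canonical ligand WNT5A, rose by 0.41 (adjusted p = 0.0187) and 0.56 (adjusted p = 0.000428). The Frizzled genes went both ways: Fzd5 fell with both siRNAs (-0.22, adjusted p = 0.00998, and -0.21, adjusted p = 0.00832), Fzd2 (0.30, adjusted p = 0.00677) and Fzd10 (0.36, adjusted p = 0.0369) rose with siRNA 1, Fzd9 rose (0.73, adjusted p = 0.0427) and Fzd3 fell (-0.26, adjusted p = 0.0133) with siRNA 2. Fzd7 (-0.01 and -0.05) and the co-receptor gene Lrp6 (0.01 and 0.12) did not pass the test. Fzd3 also differed between the siRNAs (-0.44, adjusted p = 9.12e-06), as did Fzd6 (0.41, adjusted p = 0.0316). The calls of Ryk with both siRNAs and Ror2 with siRNA 2 held without any 1 library. The Fzd2 call was lost without control replicate 3 (adjusted p = 0.065), the Fzd3 call against control without control replicate 1 (adjusted p = 0.0947), and the Fzd5 calls without control replicate 2 (siRNA 1, adjusted p = 0.0568) or 3 (adjusted p = 0.123 and 0.105). Ror2 with siRNA 1 was lost without control replicate 2 (0.26, adjusted p = 0.291) or siRNA 1 replicate 1 or 2 (adjusted p = 0.0708 and 0.0696) and with DESeq2 (adjusted p = 0.0505). Fzd10 was lost with TMM factors (adjusted p = 0.0514), with DESeq2 (adjusted p = 0.109) and without control replicate 2 or 3 or siRNA 1 replicate 1, 2 or 4 (adjusted p = 0.0785 to 0.214), Fzd9 with TMM factors (adjusted p = 0.0531), with no filter (adjusted p = 0.0712) and without control replicate 1 or 2 or siRNA 2 replicate 1, 2 or 3 (adjusted p = 0.0561 to 0.232), and Fzd6 with DESeq2 (adjusted p = 0.0864) and without siRNA 1 replicate 1, 2 or 3 or siRNA 2 replicate 1 or 4 (adjusted p = 0.0536 to 0.183).

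In the list of the destruction complex and its regulators, 2 of the 11 genes beside Axin2 were called higher with both siRNAs and none was called lower. These were Gsk3b, a kinase of the complex, and Tnks, which acts against its AXIN scaffold, so the count gives no direction for the complex. That is 18.2% with each siRNA, beside 2.71% (siRNA 1) and 6.17% (siRNA 2) of all genes called higher. The log2 fold change was above 0 for 8 of the 11 with siRNA 1 and for 7 with siRNA 2. Over all 16073 genes tested it was above 0 for 9129 with siRNA 1 and for 9182 with siRNA 2. Tnks, the tankyrase that marks AXIN proteins for degradation, had 187, 180.3 and 176 CPM in the control, 228, 236, 237 and 227 under siRNA 1 and 226, 222, 230.4 and 229.9 under siRNA 2. Each CMTR1 siRNA library was above each control, and the log2 fold changes were 0.36 (adjusted p = 1e-06) and 0.33 (adjusted p = 2.46e-06). Gsk3b, the kinase that marks beta-catenin for destruction, rose by 0.37 (adjusted p = 1.48e-05) and 0.21 (adjusted p = 0.01), and differed between the siRNAs by -0.16 (adjusted p = 0.0369). Axin1 (-0.05 and 0.00) and Apc (0.09 and 0.08), the scaffolds of the complex, did not pass the test. The calls of Tnks and of Gsk3b with siRNA 1 held without any 1 library, whereas Gsk3b with siRNA 2 was lost without control replicate 3 (0.17, adjusted p = 0.0976).

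Of the 9 Dishevelled genes and regulators beside Nkd1, 1 was called with siRNA 2 (11.1%, near the 9.72% of all genes). This was Dvl2, which fell (-0.20, adjusted p = 0.0153) and was also lower than with siRNA 1 (-0.17, adjusted p = 0.0304). The call of Dvl2 against control was lost without control replicate 2 (adjusted p = 0.0958) or 3 (adjusted p = 0.0652). Of the 12 nuclear factors beside the members, 1 was called with siRNA 2 (8.33%, near the 9.72% of all genes). This was Bcl9l, a co-activator that binds beta-catenin, which rose (0.25, adjusted p = 0.023). That call was lost with DESeq2 (adjusted p = 0.0976) and without control replicate 1 or 2 or siRNA 2 replicate 1 or 2 (adjusted p = 0.0652 to 0.137). With siRNA 1, 0 of these 12 and 0 of those 9 were called by edgeR, exactTest or, where it gave an adjusted p, DESeq2, with 2 of each at an unadjusted p under 0.05. Of the 12 target genes beside the members, 9 passed the filter, and Notum was the 1 called against control with each siRNA by edgeR's quasi-likelihood test. That is 11.1%, beside 4.67% of all genes with siRNA 1 and 9.72% with siRNA 2. Myc, a growth regulator, had 79.7, 76.3 and 77.7 CPM in the control, 61.4, 67.7, 70.4 and 71.9 under siRNA 1 and 70.5, 81.2, 74.6 and 74.1 under siRNA 2, so that each siRNA 1 library was below each control. Its log2 fold change with siRNA 1 was -0.20 and did not pass the test (adjusted p = 0.0542), whereas it was called with exactTest (adjusted p = 0.0431), TMM factors (adjusted p = 0.0295), DESeq2 (adjusted p = 0.0417) and only the 2 groups fitted (adjusted p = 0.0383), and without siRNA 1 replicate 3 or 4 or siRNA 2 replicate 2 (adjusted p = 0.0431 to 0.0476). With siRNA 2 it was -0.05 (adjusted p = 0.671). Ccnd1 (cyclin D1) was higher with siRNA 2 than with siRNA 1 (0.25, adjusted p = 0.00256), and the co-repressor gene Tle3 was lower (-0.18, adjusted p = 0.0251). In all, 6 of the 75 pathway genes differed between the siRNAs (8.0%, beside 7.44% of all genes).

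TCF7L1 represses a set of pluripotency genes, and 6 of them were listed to be read beside its level. All 6 had lower levels in both groups: 5 were called under siRNA 1 and 6 under siRNA 2, and none was called higher. Over all genes, 1.97% and 3.55% were called lower. Nanog, a core pluripotency factor, had 76.3, 92.3 and 88.4 CPM in the control, 49.7, 49.1, 69.7 and 62.8 under siRNA 1 and 47.3, 53.8, 67.9 and 66.1 under siRNA 2. It fell by 0.57 (adjusted p = 5.44e-05) and 0.54 (adjusted p = 5.04e-05) on the log2 scale, with all CMTR1 siRNA libraries below the control. Esrrb (-0.34 and -0.55), Klf2 (-0.58 and -0.38), Tfcp2l1 (-0.38 and -0.60) and Tbx3 (-0.40 and -0.43) were called with both siRNAs, and Esrrb was lower with siRNA 2 than with siRNA 1 (-0.21, adjusted p = 0.0312). Nr5a2 passed with siRNA 2 (-0.23, adjusted p = 0.0441) and not with siRNA 1 (-0.15, adjusted p = 0.286). The median was -0.39 under siRNA 1 and -0.49 under siRNA 2. Nanog and Esrrb were also 2 of the 7 ESC markers, whose summed level was lower in both groups. Of those 7, 5 were called lower with siRNA 1 and 4 with siRNA 2, and 0 had a log2 fold change above 0. Klf4 and Zfp42, outside the 6 genes here, were called lower with both siRNAs in every alternative. Pou5f1 was called lower with siRNA 1, but that call was lost in at least 1 fit that left out a library. The falls were thus not limited to the 6 listed genes, and a part of TCF7L1 in them was not tested. The Tfcp2l1 call with siRNA 1 was lost with DESeq2 (adjusted p = 0.235) and without control replicate 2 (adjusted p = 0.111), control replicate 3 (adjusted p = 0.0974), siRNA 1 replicate 1 (adjusted p = 0.0663) or siRNA 1 replicate 2 (adjusted p = 0.0631). The Tbx3 call with siRNA 1 was lost without control replicate 2 (adjusted p = 0.0914), and the Nr5a2 call with DESeq2, with no filter, with only the 2 groups fitted and without any 1 control library, siRNA 1 replicate 2 or 4 or siRNA 2 replicate 1 or 2 (adjusted p = 0.0523 to 0.156).

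Beta-catenin also joins cadherins to the actin skeleton at cell contacts, and 6 genes of that complex were measured. Cdh2 (N-cadherin) rose with both siRNAs, from 37.1, 38.5 and 34.3 CPM in the control to 50.2, 49.98, 44.9 and 47.7 under siRNA 1 and 42.8, 42.6, 49.9 and 46.1 under siRNA 2, with no overlap (0.39 on the log2 scale with adjusted p = 0.000462, and 0.30 with adjusted p = 0.00483). Cdh1 (E-cadherin), at 491 to 551 CPM in the control, fell with siRNA 1 to 433 to 447 (-0.21, adjusted p = 0.00224), and with siRNA 2 it was 462 to 509.7 (-0.08, adjusted p = 0.274). Ctnna1, Ctnna2, Ctnnd1 and Jup, the catenins of the complex, did not pass the test with either siRNA. Without control replicate 3, the call of Cdh1 with siRNA 1 (-0.16, adjusted p = 0.0757) and that of Cdh2 with siRNA 2 (0.26, adjusted p = 0.0552) were lost. The log2 fold change of the 4 neural markers was above 0 for all 4 with siRNA 1 and for 3 with siRNA 2, where Pax6 was below 0. Over all 16073 genes tested it was above 0 for 9129 and 9182. The part of these markers in the result was not tested. Nes, an intermediate filament of neural progenitors, rose by 0.26 (adjusted p = 0.0152) and 0.45 (adjusted p = 6.23e-06), and was higher with siRNA 2 than with siRNA 1 (0.19, adjusted p = 0.0391). Map2, a microtubule-associated protein of neurons, rose with siRNA 2 (0.36, adjusted p = 0.0455) and had 0.06 with siRNA 1 (adjusted p = 0.872). Pax6, a neural transcription factor, had 9.40, 12.3 and 9.42 CPM in the control, 12.9, 16.3, 12.4 and 12.4 under siRNA 1, all above the control, and 9.23, 8.11, 7.41 and 9.01 under siRNA 2, all below it. Neither difference passed the test (0.38, adjusted p = 0.0887, and -0.30, adjusted p = 0.188), whereas that between the siRNAs did (-0.68, adjusted p = 0.000312), in every alternative. Sox1, another neural transcription factor, had 0.25 (adjusted p = 0.129) and 0.03 (adjusted p = 0.905). The Map2 call was lost with TMM factors, DESeq2 and no filter, and without any 1 control library, siRNA 1 replicate 2 or 4 or siRNA 2 replicate 1, 2 or 4 (adjusted p = 0.0516 to 0.165). The Nes call with siRNA 1 was lost without control replicate 2 (adjusted p = 0.168), siRNA 1 replicate 1 (adjusted p = 0.0637) or siRNA 1 replicate 2 (adjusted p = 0.0661).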

How the data were processed

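The deposited files hold whole-number read counts per Ensembl gene, which the authors made from rRNA-depleted, directional libraries (NEBNext Ultra II) sequenced as paired reads. Adapters were trimmed with Cutadapt, reads aligned to GRCm38/mm10 with STAR, duplicates removed with Picard and counts taken with featureCounts, as the paper's methods and the submitters' processing notes name them. Versions and the strand setting are not given in the sources used here. Duplicate removal lowers the counts of abundant genes the most. Summary lines (reads with no feature, ambiguous reads and reads not aligned uniquely, in 10 of the 11 files) were left out. Reads with no feature made up 39.3% to 44.3% of the reads listed in those files.

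Counts were fitted with edgeR 4.0.16 (R 4.3.3) by glmQLFit and glmQLFTest over all 11 libraries with group as the factor, library totals as scaling, and genes over 1 CPM in at least 4 libraries. Adjusted p-values are Benjamini-Hochberg values over the 16073 genes, called at 0.05. Of the 54838 identifiers, 54809 were in GENCODE M21. The SE was the log2 fold change over the root of F, and intervals are 95%. The fit was tested on simulated data with the same dispersion for all genes. Known changes, larger than most differences called here, were put only into well-counted genes of the siRNA 1 group. The simulation therefore does not bear on smaller changes or on genes of few reads. Alternatives were TMM factors, DESeq2 1.42.0, exactTest, other filters, 2 groups only, a replicate block and leaving out each library. Every member was named, with each other pathway gene called in any comparison, and Tcf7l2, Gsk3b, Apc, Axin1, Lrp6, Fzd7, Porcn, Wls and Cdh1 always; for each member the 3 genes of most similar log2 CPM (prior count 2) were named. Myc, the ESC markers and the genes of the pluripotency, cadherin and neural lists, outside this rule except Cdh1, were named after their values were seen. The members and lists were chosen with earlier results of these data known. Of the genes most similar to Lef1, 1 is not reported here.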

Additional observations from a re-analysis of the deposited data

Results flagged for a closer look

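In the groups of 4 libraries, 5 genes had 1 library far from the other 3 by Dixon's test. Wnt3 reached 4.41 CPM in siRNA 1 replicate 4 (others 3.17 to 3.26), Ryk 71.7 CPM in siRNA 2 replicate 4 (others 65.5 to 66.0), and Lrp6 208 CPM in siRNA 1 replicate 1 (others 186 to 189.9). In siRNA 1 replicate 2, Cdh1 was at 433 CPM (others 445 to 447) and Pax6 at 16.3 CPM (others 12.4 to 12.9). Chance flags about 1 in 20 groups, and 86 were examined.

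For 10 of the genes given with values, the effects of the 2 siRNAs, which share the control libraries, differed by the direct test of siRNA 2 against siRNA 1. That test called 7.44% of all genes and 8.0% of the 75 other pathway genes. Ccnd1, Fzd6 and Tle3 were examined only because this test called them, so the 10 cannot be read as a share. On the log2 scale the difference was -0.44 for Fzd3 (adjusted p = 9.12e-06), 0.25 for Ccnd1 (adjusted p = 0.00256) and -0.68 for Pax6 (adjusted p = 0.000312), and all 3 held in every alternative. It was 0.41 for Fzd6 (adjusted p = 0.0316), -0.17 for Dvl2 (adjusted p = 0.0304), -0.16 for Gsk3b (adjusted p = 0.0369), -0.18 for Tle3 (adjusted p = 0.0251), 0.13 for Cdh1 (adjusted p = 0.046), -0.21 for Esrrb (adjusted p = 0.0312) and 0.19 for Nes (adjusted p = 0.0391). Of the last 7, each call was lost without certain single libraries. These were siRNA 1 replicates 1 to 3 and siRNA 2 replicates 1 and 4 for Fzd6 (adjusted p = 0.0536 to 0.183), siRNA 1 replicates 1 and 4 and siRNA 2 replicates 2 to 4 for Dvl2 (0.0538 to 0.119), and any siRNA 1 library and siRNA 2 replicates 2 and 3 for Gsk3b (0.0544 to 0.112). They were siRNA 1 replicates 1 and 2 and siRNA 2 replicates 1 and 4 for Tle3 (0.0631 to 0.142), and control replicate 2, any siRNA 1 library and siRNA 2 replicates 2 to 4 for Cdh1 (0.0522 to 0.1502). For Esrrb they were siRNA 1 replicates 2 to 4 and siRNA 2 replicates 1 and 2 (0.0543 to 0.123), and for Nes siRNA 1 replicates 2 to 4 and siRNA 2 replicates 1, 2 and 4 (0.0553 to 0.181). With DESeq2 the calls of Fzd6 (adjusted p = 0.0864), Gsk3b (0.0519), Cdh1 (0.0686), Esrrb (0.0613) and Nes (0.0904) were also lost, as was that of Cdh1 with TMM factors (0.0618) and that of Gsk3b with no filter (0.0502).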

How the results depend on the processing

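The Lef1 calls held under all 18 alternatives with both siRNAs. With siRNA 1 the members called were 2 with exactTest and 2 with no filter (Axin2 added), and 1 to 2 over the fits that left out 1 library. With siRNA 2 they were 1 to 3 over those fits (Tcf7l1 lost without control replicate 2 or 3 or siRNA 2 replicate 1 or 4; Ctnnb1 added without siRNA 2 replicate 3). Between the siRNAs they were 1 with exactTest and 0 to 1 over those fits (Wnt3). Other pathway genes called were 5 to 10, 6 to 11 and 2 to 6 over the fits that left out 1 library, for siRNA 1, siRNA 2 and their difference. All genes called were 751, 1562 and 1196. They ranged over 355 to 850, 807 to 1667 and 724 to 1374 when 1 library was left out, with the fewest without control replicate 2, control replicate 3 and siRNA 1 replicate 2, and DESeq2 called 521, 958 and 738. The cause was not tested. DESeq2 gave no adjusted p for some low genes, among them Sp5 and Wnt3 in any comparison, Nkd1 with siRNA 1 and Fzd9 against control.

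Directions that turned were all of differences near 0 that had not passed the test. Over the fits that left out 1 library, the difference from control ran from -0.185 (without control replicate 2) to 0.0778 (without control replicate 1) for Nkd1 with siRNA 2, from -0.0918 (without control replicate 1) to 0.354 (without control replicate 2) for Sp5 with siRNA 1, from -0.00884 (without control replicate 1) to 0.0984 for Tcf7 with siRNA 1, and from -0.199 (without siRNA 2 replicate 4) to 0.261 (without control replicate 2) for Wnt3 with siRNA 2. For Sp5 between the siRNAs it ran from -0.00159 (without siRNA 2 replicate 1) to 0.350007. For the other genes it ran from -0.0198 to 0.0295 for Axin1 with siRNA 2, from -0.0238 to 0.0149 for Fzd7 with siRNA 1, from -0.026 to 0.0452 for Lrp6 with siRNA 1 and from -0.0419 to 0.134 for Sox1 with siRNA 2. With the replicate block Axin1 with siRNA 2 gave 0.00624 and Fzd7 with siRNA 1 gave 0.00306, and Lrp6 with siRNA 1 gave -0.00921 with TMM factors and -0.0128 with DESeq2.

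The sources used here do not say whether libraries of the same replicate number share a batch. Over 10 pairs of the same number in different groups, the correlation of deviations from the group means was -0.057 to 0.062, with a mean of 0.0096. Over the 30 other pairs the mean was -0.0032. Of the 11 libraries, 5 correlated best with their own number, and no test of pairing was run. With the replicate number as a block, 1 member differed between the siRNAs (Wnt3, -0.69, adjusted p = 0.0495), and the members called against control stayed 1 and 2. Among the other genes given with values, the block added calls of Myc (adjusted p = 0.0444) and Sox1 (0.00515) with siRNA 1 and of Fzd10 with siRNA 2 (0.0488), and Map2 with siRNA 2 lost its call (0.0705). Sp5, Wnt3 and Nkd1 rested on 7 to 35 reads per library and had the widest intervals of the members.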
